A study of Mus musculus with 8 samples.

Results

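The Myc, Max and Mxd network is a small family of transcription factors that share Max as their dimerization partner. In these mouse embryonic stem (ES) cells it was followed through 7 genes, Myc, Mycn, Max, Mga, Mxi1, Mxd3 and Mxd4, which were taken by symbol alone from the 23284 genes of the authors' deposited table. The study compared 2 ES cell clones of mixed strain. Clone 6 carries a transgene of Ctcfl, which encodes a testis paralog of the insulator protein Ctcf, and clone 7 carries no transgene. Both clones were grown on mouse embryonic fibroblast feeders, replated without feeders and kept for 48 h in medium with 2 µg/ml doxycycline, the antibiotic that switches inducible transgenes, or in medium without it. This gave 4 groups: the transgenic line without doxycycline, the transgenic line with doxycycline, the non-transgenic line without it and the non-transgenic line with it. Each group held 2 libraries, 8 in all, read as 75 bp single ends.

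Each line was 1 clone, so the transgene and the clone cannot be told apart in any comparison between lines. The deposited values are 1 FPKM (a level per length: fragments divided by transcript length and scaled for library size) for each gene in each group. How the library size was set is not given. No spread between libraries can be shown, and the depth is unknown. The deposited p-values come from the authors' test on groups of 2 biological replicates, and how it modelled their spread is not given. For doxycycline in the non-transgenic line 0.108% of tested genes had a p-value below 0.05, a smaller share than the threshold itself. A gene without a call is therefore not shown to be unchanged. In the titles each group's libraries carry the same pair of tags as those of the other groups, and what the tags mark is not stated. A gene was called where the authors' deposited table marked it as tested and gave a q-value, its p-value adjusted over all 6 pairwise comparisons together, below 0.05. Errors of log2 ratios are standard errors (SE) rebuilt from the deposited test statistic, and 95% intervals follow from them. Both treat that statistic as normal, and the deposited p-values do not follow from it in that way. Between lines without doxycycline the ES cell marker Utf1 had a statistic of -3.33, yet a larger deposited p-value than Mycn with -2.10. The SEs and intervals are therefore approximate and need not match the p-value printed beside them. In RNA from whole cultures, fewer cells of a type and less RNA per cell cannot be told apart.

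Myc and Mycn bind E-box DNA as heterodimers with Max and raise transcription of genes for ribosome production, nucleotide synthesis and the cell cycle. The Mxd proteins, with Mxi1 among them, compete for Max and bring the Sin3 histone deacetylase complex to the same sites. Mga, a large protein with both a T-box and a Max-binding domain, acts with Max in a variant Polycomb repressive complex that keeps germ cell genes silent in ES cells. Myc and Mycn are both active in mouse ES cells, where they overlap in function in self-renewal and growth.

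The whole table serves here as background. The FPKM of all genes summed to between 717813 and 737443 in the 4 groups, and between 12033 and 12092 genes reached 1 FPKM. Ctcfl itself was at 0.403 FPKM in the transgenic line without doxycycline, 0.995 with it, 0.513 in the non-transgenic line without doxycycline and 0.498 with it. Its difference with doxycycline in the transgenic line was not called in the authors' deposited table (p = 0.0062, q = 0.296), and the sources used here do not say whether the transgene lies in the counted part of the gene. All 10 ES cell markers were at 1 FPKM or above in every group, with sums between 4076 and 4381 FPKM. The 12 feeder fibroblast markers summed to 294 and 295 FPKM in the transgenic line without and with doxycycline and to 237 and 232 FPKM in the non-transgenic line, and none was listed at 0. Most of that gap was Col1a1, at 132 and 140 FPKM in the transgenic line and 92.8 and 86.8 FPKM in the other. None of the 11 tested was called between lines, where 1.37% and 1.52% of all tested genes were called without and with doxycycline. Markers of the primitive streak and mesoderm, 7 of 8 listed being in the table, summed to 116 and 122 FPKM in the transgenic line without and with doxycycline and to 14.7 and 13.0 FPKM in the non-transgenic line. For comparison, 10 endoderm and trophoblast markers summed to 223 and 371 FPKM in the transgenic line and to 82.9 and 73.8 FPKM in the non-transgenic line, in the same order. The keratins Krt8 and Krt18 made up most of that sum, 208 and 351 FPKM in the transgenic line and 72.7 and 61.8 FPKM in the other, and only 3 to 5 of the 10 markers reached 1 FPKM. No marker of either list was listed at 0. These sums move with every comparison of the lines below, and their part in those results was not tested.

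Promoter sequence was available in RefSeq (GRCm38.p6) for 6 of the 7 genes, all but Myc, as 8 windows of 300 bases that run from 250 bases before to 50 bases after a gene's start. The promoter of Mycn is shown because Mycn was the member called between lines, and those of Max and Mxd4 because they hold an E-box, the site that Myc and Mxd heterodimers with Max bind. E2F factors, which drive entry into S phase, are known activators of Mycn. In the Mycn window capitals mark the E2F elements TTTGGCGC and TTTCGCGC, searched on both strands. In the other windows capitals mark the E-box CACGTG, which reads the same on both strands.
Mycn, chr12:12941787-12942086, minus strand: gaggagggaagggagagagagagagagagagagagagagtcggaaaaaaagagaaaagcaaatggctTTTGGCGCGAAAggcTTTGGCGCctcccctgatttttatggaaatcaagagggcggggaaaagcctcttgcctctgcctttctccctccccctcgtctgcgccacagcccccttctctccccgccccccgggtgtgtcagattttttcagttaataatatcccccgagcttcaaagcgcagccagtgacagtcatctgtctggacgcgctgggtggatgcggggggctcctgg
Max, chr12:76962216-76962281, minus strand: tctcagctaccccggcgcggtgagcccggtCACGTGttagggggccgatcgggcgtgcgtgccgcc
Mxd4, chr5:34187894-34187959, minus strand: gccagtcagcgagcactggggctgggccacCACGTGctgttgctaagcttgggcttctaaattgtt

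The Mycn window held 3 E2F elements, which begin at positions -183, -179 and -168 from the gene's start, and those at -183 and -179 overlap. None of the windows searched for the other 5 genes held 1, and among all 32851 RefSeq promoter windows of this length 267 did (0.813%). The E-box began 3 bases before the start of Max and at position -219 of Mxd4. It was found in 2349 of the 32851 windows (7.15%). These are matches of letters, and no binding was measured in this study.

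Mycn was the most abundant of the 7 mRNAs in every group, followed by Myc and Max. Mycn encodes N-Myc, and on mm10 the deposited locus runs from 12936093 to 12941836 on chromosome 12, on the minus strand, over a protein-coding gene with 3 transcripts in GENCODE (ENSMUSG00000037169.15). Its level was 134 FPKM in the transgenic line without doxycycline, 116 FPKM in the transgenic line with doxycycline, 191 FPKM in the non-transgenic line without doxycycline and 207 FPKM in the non-transgenic line with it. Both values of the transgenic line lay below both values of the non-transgenic line. The same held for Myc, Max, Mga and Mxi1, and how many of all genes show this order was not counted. Among genes at 1 FPKM or above, Mycn stood at percentile 93.9, 93.0, 95.6 and 96.0 in the same order. Positions given below for the other members are also those of the deposited loci.

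Myc, the gene of c-Myc (chromosome 15, 61985341 to 61990361, plus strand, ENSMUSG00000022346.15), was at 41.5 and 38.1 FPKM in the transgenic line without and with doxycycline and at 46.1 and 50.4 FPKM in the non-transgenic line. Its order over the groups was that of Mycn, at a lower level. Max, the shared partner (chromosome 12, 76937269 to 76962248, minus strand, ENSMUSG00000059436.13), was at 39.3, 38.1, 41.4 and 43.5 FPKM in the same order of groups. Myc and Max lay close together in every group, and the deposited statistics compare groups, not genes, so this pair has no test. Across the groups the highest value was 1.78 times the lowest for Mycn, 1.32 times for Myc and 1.14 times for Max.

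The repressor arm was expressed at lower levels. Mga (chromosome 2, 119897228 to 119969581, plus strand, ENSMUSG00000033943.15) was at 13.2 FPKM in the transgenic line both without and with doxycycline, and at 13.5 and 14.7 FPKM in the non-transgenic line. Mxd3, which in other tissues marks dividing progenitors (chromosome 13, 55322055 to 55329730, minus strand, ENSMUSG00000021485.14), was at 13.8 and 11.3 FPKM in the transgenic line without and with doxycycline and at 13.7 and 11.1 FPKM in the non-transgenic line. Its deposited locus is shared with the gene Prelid1, and GENCODE places Mxd3 itself at 55325168 to 55329823. Between the media the order of Mga and Mxd3 differed: Mxd3 was the fourth of the 7 genes in both groups without it, and Mga was the fourth in both groups with it. Neither gene differed between the media by more than its SE in either line. The deposited statistics do not compare genes, so the order of this pair has no test.

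The last places were held by Mxd family members that accompany differentiation in many tissues. Mxd4 (chromosome 5, 34176580 to 34187710, minus strand, ENSMUSG00000037235.13) was at 5.95 and 6.29 FPKM in the transgenic line and at 5.31 and 5.91 FPKM in the non-transgenic line, without and with doxycycline. Mxi1 (chromosome 19, 53310506 to 53375810, plus strand, ENSMUSG00000025025.14) was at 3.49 and 3.48 FPKM in the transgenic line and at 4.10 and 4.62 FPKM in the non-transgenic line. Mxd4 was the sixth and Mxi1 the seventh in all 4 groups. Mxi1 stood at percentile 20.8 to 27.1 among genes at 1 FPKM or above, against 30.4 to 33.9 for Mxd4 and 48.8 to 56.2 for Mga and Mxd3.

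**Figure D1:**
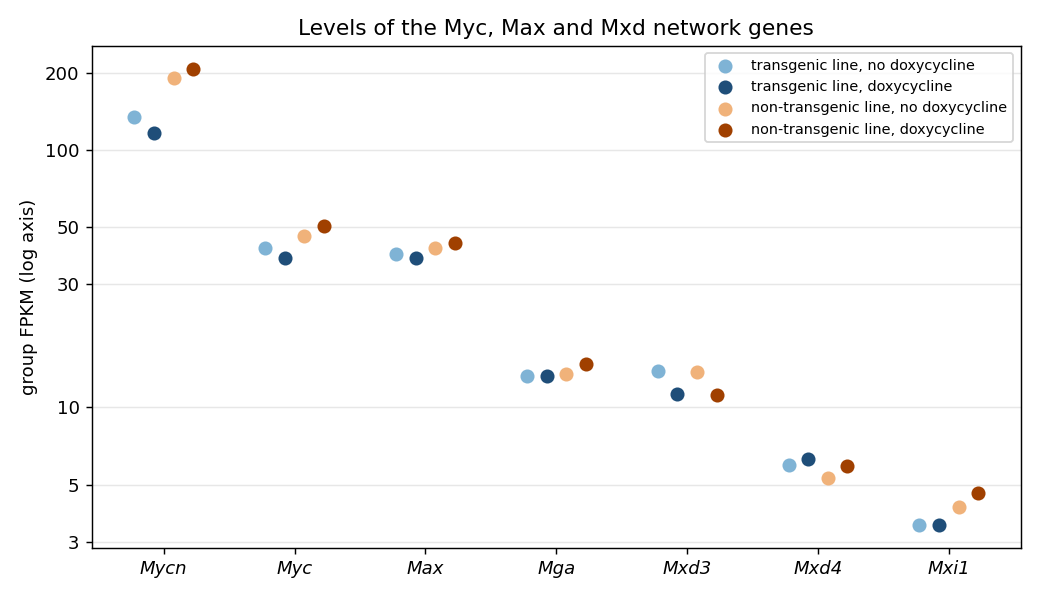
FPKM of the 7 network genes on a log axis, with 1 point for each of the 4 groups (1 deposited value per group from 2 libraries, so no error bars). Mycn is the highest of the 7 in every group. Its transgenic values, 134 and 116 FPKM, lie below its non-transgenic values, 191 and 207 FPKM, as also for Myc, Max, Mga and Mxi1.

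Summed over the activator genes, Myc and Mycn together came to 175 and 154 FPKM in the transgenic line without and with doxycycline and to 237 and 257 FPKM in the non-transgenic line. Mycn made up 76.3% and 75.3% of that sum in the transgenic line and 80.5% and 80.4% in the non-transgenic line. The sum of Mga and the Mxd genes (Mxi1, Mxd3 and Mxd4) was nearly level, at 36.4, 34.2, 36.5 and 36.4 FPKM in the same order of groups. Mxd3 supplied 11.1 to 13.8 FPKM of it, and the log2 ratios of Mxd3 had SEs of 0.99 to 1.38. Mnt, another repressor that pairs with Max, is not in this sum, at 16.2 to 18.6 FPKM. The ratio of Myc and Mycn to Mga and the Mxd genes was 4.82 and 4.51 in the transgenic line, and 6.49 and 7.08 in the non-transgenic line. For each unit of Max, Myc and Mycn came to 4.46 and 4.05 in the transgenic line and 5.72 and 5.92 in clone 7, without the transgene, and Mga with the Mxd genes to between 0.837 and 0.925 in all groups. These are ratios of mRNA levels per length, and protein was not measured.

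**Figure D2:**
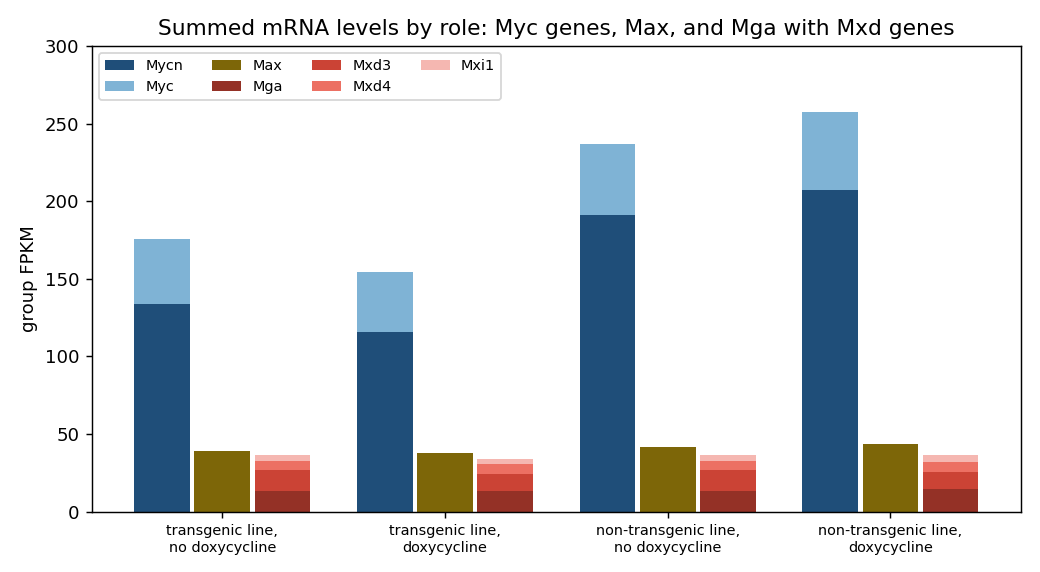
Summed FPKM by role in the 4 groups: Myc with Mycn, Max alone, and Mga with the Mxd genes, as stacked bars from 0 with 1 colour per gene (1 deposited value per gene and group, no error bars). The Myc and Mycn sum spans 154 to 257 FPKM, while the sum of Mga and the Mxd genes stays between 34.2 and 36.5 FPKM. That latter sum includes Mxd3, the member with the widest error, and leaves out the repressor Mnt. The Myc and Mycn sum leaves out Mycl1.

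Between the lines, Mycn was the only member called in the comparison with doxycycline. It was 1.78-fold lower in the transgenic line, a log2 ratio of -0.83 with an SE of 0.26 and a 95% interval from -1.35 to -0.32, and the authors' deposited table gave p = 5e-05 and q = 0.00812. That p is the smallest the table holds, and 481 tests share it. In this comparison 199 of 13064 tested genes were called (1.52%), of which 87 were lower in the transgenic line (0.666% of the tested genes) and 112 were higher (0.857%). By level in the non-transgenic line with doxycycline, Mycn was the fourth most abundant of the 87 genes called lower. By size of the difference it was the 79th, against a median log2 ratio of -1.19 for those genes.

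Without doxycycline Mycn was lower in the transgenic line by a smaller ratio that was not called. The level was 1.43-fold lower, a log2 ratio of -0.51 with an SE of 0.24 and a 95% interval from -0.99 to -0.03, and the authors' deposited table gave p = 0.0048 and q = 0.250. In that comparison 179 of 13047 tested genes were called (1.37%), none of them a member, and Mycn was the 1 member with an unadjusted p below 0.05. An effect that passes the threshold with doxycycline and misses it without is not shown to differ between the media, and the test of that difference is given with the doxycycline responses below.

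The table also compares each transgenic group with the non-transgenic group grown in the other medium. Mycn was called lower in the transgenic line with doxycycline against the non-transgenic line without it (log2 ratio -0.72, SE 0.26, 1.64-fold, q = 0.00812 in the authors' deposited table), where 211 of 13060 tested genes were called (1.62%). It was not called in the transgenic line without doxycycline against the non-transgenic line with it (log2 ratio -0.63, SE 0.25, 1.55-fold, q = 0.0704 in the authors' deposited table), where 179 of 13045 were called (1.37%). These comparisons use the same 4 groups as the others and are not independent of them.

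The 2 nearest genes on chromosome 12, the only ones in the table within 500 kb of Mycn, had smaller ratios between lines than Mycn. Ddx1, an RNA helicase gene that is often co-amplified with MYCN in neuroblastoma (13219307 to 13249174), was at 111.1, 111.1, 110.0 and 115.4 FPKM in the transgenic line without and with doxycycline and the non-transgenic line without and with it. Its log2 ratio between lines was 0.01 without doxycycline and -0.05 with it. Nbas, which encodes a protein of Golgi-to-endoplasmic reticulum transport (13269127 to 13583811), was at 3.75, 3.79, 4.05 and 4.11 FPKM in the same order, with log2 ratios between lines of -0.11 and -0.12. Neither gene was called in any of the 4 comparisons within a line or within a medium.

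None of the other 6 members was called between lines in either medium. Myc was lower in the transgenic line by a log2 ratio of -0.15 without doxycycline (SE 0.28, 95% interval -0.70 to 0.40) and by -0.40 with it (SE 0.30, 95% interval -0.99 to 0.18), with p = 0.442 and p = 0.061 in the authors' deposited table. Max differed by -0.07 (SE 0.33) and -0.19 (SE 0.31), and Mga by -0.03 (SE 0.35) and -0.16 (SE 0.29). Mxi1 differed by -0.24 (SE 0.48) and -0.41 (SE 0.39). The ratios of Mxd4 were above 0, at 0.17 (SE 0.37) and 0.09 (SE 0.37). In each medium 5 of the 7 ratios were below 0, beside 50.5% of all genes at 1 FPKM or above without doxycycline and 53.8% with it. On the log2(FPKM + 1) scale the median of the 7 was -0.07 without doxycycline, against -0.0020 over 12360 genes at 1 FPKM or above, and -0.19 with doxycycline, against -0.020 over 12370 genes.

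Mxd3 was the member with the widest error. Its log2 ratio between lines was 0.010 without doxycycline (SE 0.99) and 0.016 with it (SE 1.38), so the 95% interval with doxycycline ran from -2.68 to 2.72. The deposited locus of Mxd3 is also that of Prelid1, a mitochondrial lipid transfer gene at 317 to 385 FPKM, so reads of these neighbours were assigned within 1 shared region. A difference in Mxd3 of several fold in either direction lies within this error.

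Doxycycline gave no call for a member in either line by the deposited test. In the transgenic line the log2 ratio, with over without doxycycline, was -0.12 for Myc (SE 0.28) and -0.21 for Mycn (SE 0.25, 95% interval -0.70 to 0.29). For Max it was -0.05 (SE 0.29), for Mga -0.0056 (SE 0.27) and for Mxi1 -0.00059 (SE 0.38). Mxd3 was at -0.29 (SE 1.29) and Mxd4 at 0.08 (SE 0.32). Each of the 7 had q = 0.999578 in the authors' deposited table, and none had an unadjusted p below 0.05. Of 13003 tested genes 14 were called in this comparison (0.108%), and 0 when p-values were adjusted within it alone, with 140 at an unadjusted p below 0.05.

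In the non-transgenic line, which serves as the control for doxycycline alone, 6 of 7 ratios were above 0, beside 58.0% of all genes at 1 FPKM or above. In the transgenic line 6 of 7 were below 0, beside 49.6%. The log2 ratio in the non-transgenic line was 0.13 for Myc (SE 0.30), 0.12 for Mycn (SE 0.25, 95% interval -0.38 to 0.61), 0.07 for Max (SE 0.35), 0.13 for Mga (SE 0.37), 0.17 for Mxi1 (SE 0.50) and 0.16 for Mxd4 (SE 0.41). Mxd3 was again at -0.29 (SE 1.11). None was called and none had an unadjusted p below 0.05. The authors' test called 0 of 12908 tested genes here (0%), with 14 at an unadjusted p below 0.05. The median of the members on the log2(FPKM + 1) scale was 0.12, against 0.021 over 12239 genes, and in the transgenic line it was -0.05, against 0.0010 over 12288 genes.

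**Figure D3:**
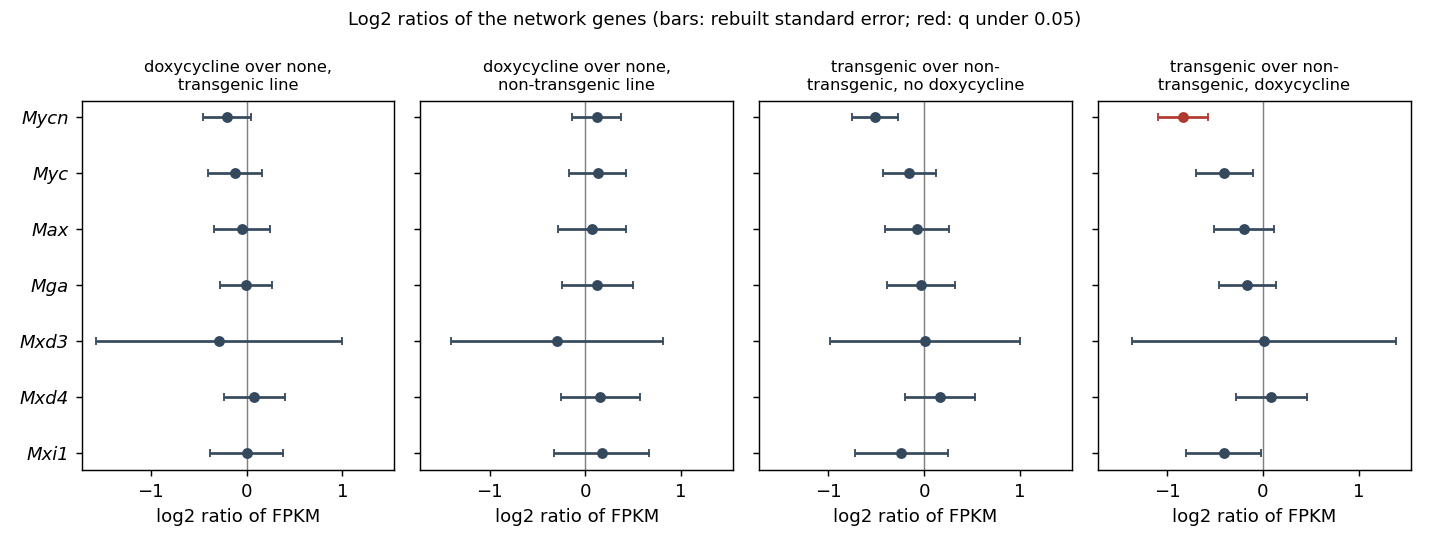
Log2 FPKM ratios of the 7 network genes in the 4 comparisons, with bars of 1 rebuilt SE to each side and a line at 0; red marks a call, a deposited q under 0.05. The 1 call is Mycn between lines with doxycycline, at -0.83, and the bars of Mxd3 are the widest.

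The responses to doxycycline in the 2 lines were then set against each other by a two-sided normal test on the difference of log2 ratios, adjusted over 12638 genes by the Benjamini-Hochberg method. For Mycn this difference, transgenic minus non-transgenic, was -0.32 (SE 0.36), with a 95% interval from -1.02 to 0.38. The p-value of the normal test for Mycn was 0.367, the smallest among the members. It is also the difference between the line ratios with and without doxycycline, so the larger Mycn ratio with doxycycline was not resolved from the smaller one without it. For Myc the difference was -0.25 (SE 0.41, 95% interval -1.05 to 0.55), for Max -0.12 (SE 0.45), for Mga -0.13 (SE 0.46), for Mxi1 -0.17 (SE 0.62) and for Mxd4 -0.08 (SE 0.52). For Mxd3 the difference was 0.0061 with an SE of 1.70. All 7 had an adjusted p of 0.999994. Of the 12638 genes 18 were called (0.142%), and 0 when the SE was taken from the deposited p-value instead, with 26 at an unadjusted p below 0.05.

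The genes whose profile over the 4 groups lay nearest to that of Mycn were 1700028B04Rik, an uncharacterised transcript, Cnpy1 and Nhedc1. Their root-mean-square distances, on centred log2(FPKM + 1) values over the 4 groups, were 0.0193, 0.0196 and 0.0290, against a median of 0.344 over 12155 genes. Cnpy1 was at 3.15, 2.64, 4.76 and 5.32 FPKM in the transgenic line without and with doxycycline and the non-transgenic line without and with it. In the same order 1700028B04Rik was at 1.56, 1.28, 2.61 and 3.03 FPKM, and Nhedc1 at 3.90, 3.50, 6.22 and 6.85 FPKM. At such low levels the added 1 narrows the ratios between groups, which it barely does for Mycn. Their closeness to Mycn therefore depends in part on this scale. The profile of Myc lay nearest to those of Slc25a15, Slc39a6 and Pgrmc2, at distances of 0.0071, 0.0072 and 0.0107, against a median of 0.160. With 4 group values each, such likeness is a description of these groups alone.

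Other factors of the same network were counted from a list of 6: Mycl (listed as Mycl1), Mnt, Mlx, Mlxip, Mlxipl and Mxd1. None was called in the 4 comparisons within a line or a medium, and in each comparison of the lines 2 had an unadjusted p below 0.05. Over all tested genes that share was 6.59% between lines without doxycycline and 7.90% with it, and 1.08% and 0.108% for doxycycline in the transgenic and the non-transgenic line. Mycl1, the gene of L-Myc, went in the opposite direction from Mycn, at 15.7 and 12.1 FPKM in the transgenic line without and with doxycycline and at 9.76 and 7.44 FPKM in the non-transgenic line. Its log2 ratio between lines was 0.69 (SE 0.29, q = 0.190) without doxycycline and 0.70 (SE 0.33, q = 0.419) with it, in the authors' deposited table. In the comparison across media, transgenic without doxycycline against non-transgenic with it, Mycl1 was called higher (2.11-fold, q = 0.0252 in the authors' deposited table). Mlxipl, which encodes the glucose-responsive factor ChREBP, was at 1.24, 1.25, 2.55 and 2.97 FPKM, with q = 0.318 and q = 0.104 between lines. Mnt, a broadly expressed repressor that pairs with Max, was at 16.2, 18.0, 18.6 and 18.4 FPKM, above each Mxd gene in all groups. Mlx, the Max-like partner of the Mlxip arm, was at 18.1, 20.5, 19.7 and 19.2 FPKM. Mxd1 was at 0.727 to 1.05 FPKM, below the 3 Mxd family members.

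The 23 coactivators and stability factors of Myc were all tested, and none was called in those 4 comparisons. Between lines without and with doxycycline 1.37% and 1.52% of all tested genes were called. In each comparison of the lines 1 gene of the list had an unadjusted p below 0.05, beside 6.59% and 7.90% of all tested genes. That gene was Usp28, a deubiquitinase that stabilises Myc proteins, at 26.3 and 29.5 FPKM in the transgenic line without and with doxycycline and at 41.2 and 45.2 FPKM in the non-transgenic line. Its log2 ratio between lines was -0.65 (SE 0.29) without doxycycline and -0.62 (SE 0.31) with it, and the authors' deposited table gave q = 0.0871 and q = 0.203. In the comparison of the transgenic line without doxycycline against the non-transgenic line with it, Usp28 was called lower (1.72-fold, q = 0.00812 in the authors' deposited table). The most abundant of the list were Ruvbl2, Ruvbl1 and Smarcb1, ATPases and a SWI/SNF subunit that take part in chromatin remodelling, at 240 to 256, 122 to 128 and 99.6 to 108 FPKM. The list's median log2(FPKM + 1) ratio was -0.04 for doxycycline in the transgenic line, -0.01 for doxycycline in the non-transgenic line, 0.0015 between lines without doxycycline and -0.04 between lines with it.

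Of the 14 subunits of the Sin3 corepressor complex that Mxd proteins recruit, none was called. Between lines without and with doxycycline the share over all tested genes was 1.37% and 1.52%. Unadjusted p was below 0.05 for 1 of the 14 between lines without doxycycline, for 2 with it and for 0 within a line. Over all tested genes these shares were 6.59% and 7.90% between lines. The scaffold Sin3b was at 114 and 130 FPKM in the transgenic line without and with doxycycline and at 93.2 and 90.2 FPKM in the non-transgenic line (p = 0.039 between lines with doxycycline, q = 0.858 in the authors' deposited table). The histone chaperone Rbbp7 was at 206 and 226 FPKM in the transgenic line and at 157 and 169 FPKM in the non-transgenic line (q = 0.938 without and q = 0.948 with doxycycline, in the authors' deposited table). The list's medians were -0.02 and 0.05 for doxycycline in the transgenic and the non-transgenic line, and 0.09 and -0.05 between lines without and with it.

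The 13 partners of Mga in its Polycomb complex showed no call either, beside 1.37% and 1.52% of all tested genes between lines without and with doxycycline. Between lines with doxycycline 1 partner had an unadjusted p below 0.05, beside 7.90% of all tested genes. That was Tfdp2, an E2F dimerization partner, at 10.01 and 8.71 FPKM in the transgenic line and at 12.4 and 12.6 FPKM in the non-transgenic line (q = 0.520 in the authors' deposited table). The repressor E2f6 was at 19.4 and 17.3 FPKM in the transgenic line and at 15.3 and 15.5 FPKM in the non-transgenic line. Medians of the list were -0.05, 0.03, -0.0019 and -0.11 for doxycycline in the transgenic line, doxycycline in the non-transgenic line, and the lines without and with doxycycline.

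Germ cell and meiosis genes are the known targets of silencing by Mga and Max in ES cells. Of 24 listed genes 22 were in the table, and 20 were tested between lines in each medium. Sycp1, a protein of the meiotic synaptonemal complex, was the 1 gene called, in both media, where 1.37% and 1.52% of all tested genes were called. Unadjusted p was below 0.05 for 4 of the 20 without doxycycline and for 2 with it, beside 6.59% and 7.90% of all tested genes. Sycp1 was at 3.73 and 3.67 FPKM in the transgenic line without and with doxycycline and at 0.727 and 0.764 FPKM in the non-transgenic line. Its level was 5.13-fold higher in the transgenic line without doxycycline (log2 ratio 2.36, SE 0.77) and 4.80-fold higher with it (log2 ratio 2.26, SE 0.79), with q = 0.00812 for each in the authors' deposited table. Ddx4 and Sycp3, a germ cell helicase and another synaptonemal protein, were at 8.11 to 10.8 and 12.3 to 17.0 FPKM and were not called. Stra8, the gatekeeper of meiotic entry, was at 0.221 and 2.71 FPKM in the transgenic line and at 0.372 and 0.449 FPKM in the non-transgenic line, with q = 0.0809 for doxycycline in the transgenic line in the authors' deposited table. The list's medians were between 0.02 and 0.06 in the 4 comparisons.

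The 50 Myc-activated target genes, which include genes of ribosome production, nucleotide and polyamine synthesis and glycolysis, were all tested and none was called in the 4 comparisons. Of all tested genes 1.37% and 1.52% were called between lines without and with doxycycline, and 0.108% for doxycycline in the transgenic line. At an unadjusted p below 0.05 there was 1 gene of the list, for doxycycline in the transgenic line, beside 1.08% of all tested genes. Between lines that share was 6.59% without and 7.90% with doxycycline. Small ratios lay mostly to 1 side in some comparisons. For doxycycline in the transgenic line 44 of 50 ratios were below 0, beside 49.6% of 12288 genes, with a median log2(FPKM + 1) ratio of -0.06. After rescaling each group to the same total FPKM 38 of 50 were below 0, beside 45.2% of all genes, and after rescaling by the median ratio of genes 44 of 50, beside 48.3%. For doxycycline in the non-transgenic line 35 of 50 were above 0, beside 58.0% of 12239 genes, with a median of 0.05.

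Between lines without doxycycline 25 of the 50 ratios were below 0, beside 50.5% of 12360 genes. Rescaling to equal totals shifts all genes alike, and as the list's median lay near 0 it put 38 of 50 below 0, beside 58.8% of all genes. Rescaling by median ratios left 25 of 50 below 0. Between lines with doxycycline 39 of 50 were below 0, beside 53.8% of 12370 genes, with a median of -0.12. That count was 42 of 50 with equal totals, beside 56.6% of all genes, and 38 of 50 with median ratios, beside 49.8%. These comparisons share groups. Npm1, a nucleolar protein of ribosome assembly and the most abundant gene of the list, was at 3040 and 2863 FPKM in the transgenic line without and with doxycycline and at 2971 and 3068 FPKM in the non-transgenic line. Ldha, lactate dehydrogenase A, was at 1581 and 1260 FPKM in the transgenic line and at 1667 and 1462 FPKM in the non-transgenic line (p = 0.0371, q = 0.833 for doxycycline in the transgenic line, in the authors' deposited table). Srm, the spermidine synthase gene, was at 322 and 296 FPKM in the transgenic line and at 381 and 355 FPKM in the non-transgenic line, with log2 ratios between lines of -0.24 (SE 0.15) and -0.26 (SE 0.17).

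Of 14 Myc-repressed target genes 13 were tested. Cdkn1a, the p21 inhibitor of cyclin-dependent kinases, was the 1 called, higher in the transgenic line in both media, where 1.37% and 1.52% of all tested genes were called. Unadjusted p was below 0.05 for 2 of the 13 between lines without doxycycline and for 5 with it, beside 6.59% and 7.90% of all tested genes. Cdkn1a was at 63.7 FPKM in the transgenic line both without and with doxycycline, and at 35.4 and 35.9 FPKM in the non-transgenic line. Its difference was 1.80-fold without doxycycline (log2 ratio 0.85, SE 0.32, q = 0.0145) and 1.77-fold with it (log2 ratio 0.83, SE 0.32, q = 0.0462), in the authors' deposited table. The list did not move as 1 group. Gadd45a, a growth arrest and DNA damage gene, was at 27.8 and 26.8 FPKM in the transgenic line and at 37.0 and 50.4 FPKM in the non-transgenic line (q = 0.0606 between lines with doxycycline in the authors' deposited table). Cdkn1c, the p57 inhibitor, was at 36.6 and 30.5 FPKM in the transgenic line and at 51.8 and 46.9 FPKM in the non-transgenic line. This list's medians were 0.06 and 0.0027 for doxycycline in the transgenic and the non-transgenic line, and -0.16 and 0.0080 between lines without and with it.

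**Figure D4:**
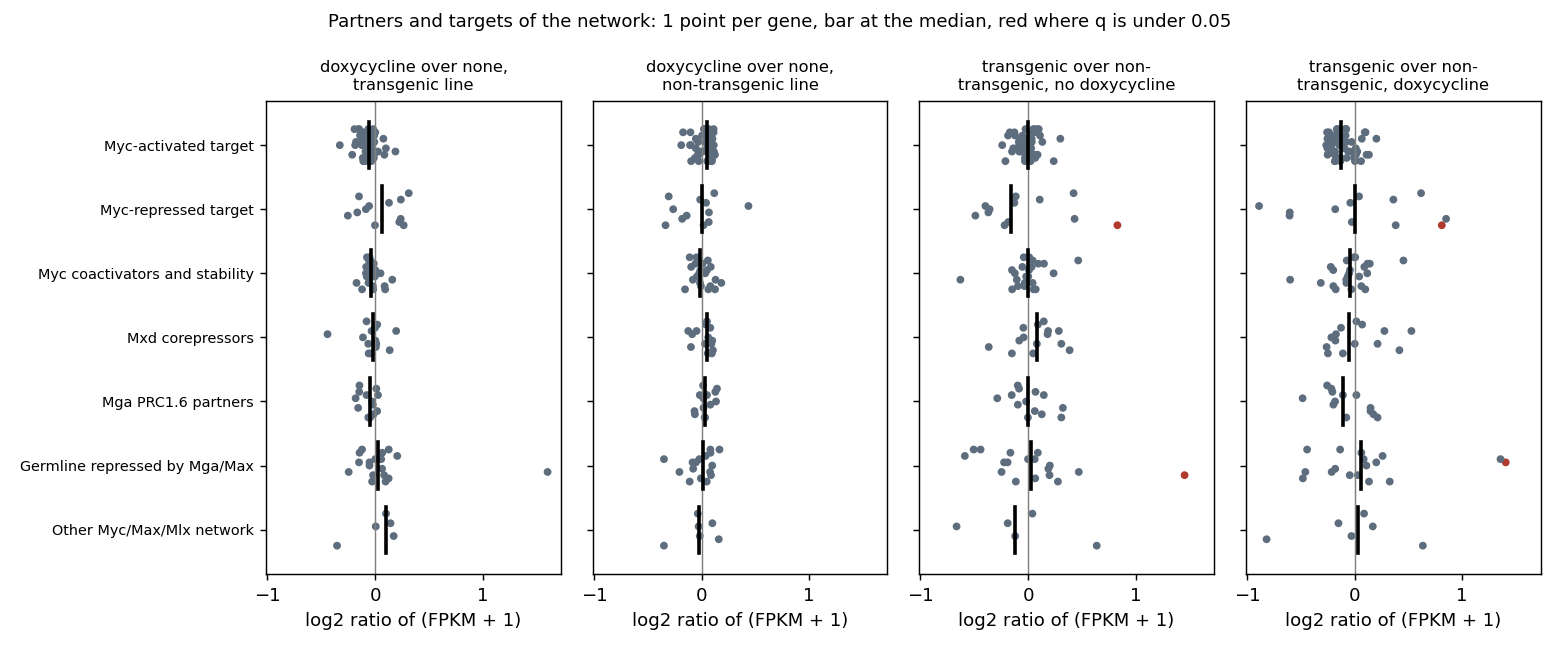
Log2(FPKM + 1) ratios of the genes at 1 FPKM or above in each list of partners and targets, for the 4 comparisons, with 1 point per gene, a bar at each list's median, a line at 0 and red for genes called. The 50 Myc-activated target genes lie close to 0, with medians between -0.12 and 0.05, and the red points are Sycp1 (germline genes) and Cdkn1a (Myc-repressed targets) between lines.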

How the data were processed

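RNA was measured in 8 libraries of 4 groups. TopHat2 2.0.8, Cufflinks 2.1.1 and mm10 are named, per the submitters' processing notes. Annotation, strand and library scaling were not given in the sources used here. Deposited by the authors was 1 table with the column headers of Cuffdiff, the comparison program of the Cufflinks package: FPKM per group, a test score (the test statistic), a p-value and a q-value for each of 6 pairwise comparisons. The deposited q-values equal a Benjamini-Hochberg adjustment over all 78127 tests together, within 5.21e-07.

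Log2 ratios were computed from the deposited FPKM, and the SE as the ratio divided by the deposited test statistic. List medians use log2(FPKM + 1) over genes at 1 FPKM or above in either group. Python 3.11.15, pandas 2.3.3, numpy 2.4.6, scipy 1.17.1 and matplotlib 3.10.9 were used. Promoters are from RefSeq, and gene records from GENCODE. The 11 lists were the other network factors, Myc coactivators and stability factors, Mxd corepressors, Mga complex partners, germline genes, Myc-activated and Myc-repressed targets, and ES cell, feeder, primitive streak, and endoderm and trophoblast markers. Named were all members, Ctcfl, each list's called genes, its 3 most abundant and its widest per comparison, and the 3 genes nearest to Mycn and to Myc. From these, those described here were chosen for brevity. The members and lists were chosen with earlier results of these data known. Alternatives were the q threshold, the adjustment, the FPKM minimum, the pseudocount, the scaling and the source of the SE.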

Additional observations from a re-analysis of the deposited data

How the results depend on the processing

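The count for doxycycline in the transgenic line fell from 14 genes to 0 when p-values were adjusted within that comparison alone, where 140 had an unadjusted p below 0.05. The count for the response-difference test fell from 18 genes to 0 when the SE came from the deposited p-value, with 26 at an unadjusted p below 0.05. The line counts stayed within 1.5 times of the values given: 158 to 224 without doxycycline and 177 to 248 with it. The Mycn log2 ratio between lines ranged from -0.85 to -0.81 with doxycycline and from -0.55 to -0.51 without it, and adjustment within each comparison gave it adjusted p-values of 0.00523 and 0.201. Of 112 alternative values of the 28 member ratios, 5 changed sign, all of ratios near 0 (Mga, Mxi1 and Mxd3), and 0 moved by more than the SE. Of 220 alternative values of the 44 list medians, 21 changed sign and 7 moved by more than a typical SE, those 7 all of marker lists; the rescaling of the lists to equal totals or by median ratios was chosen after seeing the data. No paired analysis was possible because the deposited group values combine the 2 libraries that carry the shared tags, and for the same reason no replicate could be left out. The depth of each library is unknown, which limits what can be said of Mxi1, Mxd3 and Mxd4.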

Other observations

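Around Myc on chromosome 15 the table held 3 genes within 500 kb. Pvt1, a long non-coding RNA gene downstream of Myc (62037987 to 62250975), was at 2.02 and 1.73 FPKM in the transgenic line without and with doxycycline and at 1.78 and 2.49 FPKM in the non-transgenic line. Its log2 ratio between lines was 0.18 without doxycycline and -0.52 with it, and neither was called in the authors' deposited table (p = 0.615 and p = 0.154). H2afy3 is listed at the same locus, at 0.117 to 0.186 FPKM, and D030024E09Rik was listed at 0 in all 4 groups.

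Among the ES cell markers, the pluripotency genes did not move in 1 direction between lines. Sox2 was called lower in the transgenic line in both media (log2 ratio -0.68 without doxycycline and -0.69 with it), as Mycn was with doxycycline. Nanog (1.69-fold and 1.86-fold) and Zfp42 (3.11-fold and 4.39-fold) were called higher there in both media. The other markers of the 10 were not called, and 1.37% and 1.52% of all tested genes were called without and with doxycycline. Ratios below 0 numbered 4 of 10 without doxycycline and 7 of 10 with it, beside 50.5% and 53.8% of all genes at 1 FPKM or above.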
